A study of Homo sapiens with 16 samples.

Results

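The 10 genes described here are the signalling lymphocytic activation molecule (SLAM) family receptors SLAMF1, SLAMF6, SLAMF7, SLAMF8, CD48, CD84, LY9 and CD244, and the adaptor proteins SH2D1A (SAP) and SH2D1B (EAT-2). They were taken by gene symbol as a family chosen by its differences between the induction labels on these same arrays, and they stand among 18395 genes with a gene-level value. A gene-level probe set with a single symbol was found for 9 of the 10, and SLAMF8 was followed through its exon-level probe sets, averaged on each array. The RNA came from L1236, an established Hodgkin lymphoma cell line, and was measured on Affymetrix whole-transcript arrays. Arrays labelled induced (n = 4) came from cells that carried a retrovirus with a short hairpin RNA against RELB and received doxycycline, and arrays labelled uninduced (n = 4) came from cells infected with that same virus and left without the drug. Both groups thus carried the hairpin construct, and no uninfected cells and no other hairpin were among the samples analysed here. Each label holds the title codes B_4 (replicates 3 and 4) and B_1 (replicates 1 and 2), crossed with a last number of 4 (replicates 2 and 4) or 1 (replicates 1 and 3), and the labels do not say what these codes mean. The labels do not say that the arrays came from separate cultures, so the spread between them may be technical, and p-values measure only that spread.

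SLAM receptors are immunoglobulin-superfamily proteins of blood cells. Most of them bind another copy of themselves on a neighbouring cell, while CD48, which is held in the membrane by a lipid anchor, is the ligand of CD244. Tyrosine motifs in the tails of most members are bound by the small adaptors SAP and EAT-2, and SAP brings the kinase FYN to the receptor. Loss of SAP in people causes X-linked lymphoproliferative disease.

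Values are log2 signals after the authors' robust multi-array average (RMA) processing. The targeted gene did not bear out the labels: RELB read 7.22, 7.26, 7.39 and 7.14 on arrays labelled induced and 7.23, 7.38, 7.54 and 7.45 on arrays labelled uninduced. That difference of -0.15 ± 0.09 (SE) did not pass an exact two-sided permutation test (p = 0.171; with 4 arrays in each label this test can go no lower than 0.0286). The 2 labels nevertheless stood far apart, with correlations over all genes of at least 0.9907 between arrays of a label and at most 0.9093 between arrays of different labels. Limma called 55.5% of 13796 tested genes at an adjusted p under 0.05. Of 6 Hodgkin cell markers limma called 2 higher on arrays labelled induced (TNFRSF8 and TRAF1) and 3 lower (FUT4, CCL22 and FSCN1). Of 6 tested B-cell markers it called 4 higher (CD79A, CR2, CD22 and PAX5) and 1 lower (BLK), and MS4A1 stayed below 4.78, the lowest mean of a tested gene, on all 8 arrays. All directions below rest on the labels.

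The SLAM receptors and adaptors split in direction. On arrays labelled induced, SLAMF6, CD48, SLAMF7 and CD244 were higher and SLAMF1, SH2D1A and SH2D1B were lower than on arrays labelled uninduced, and CD84, LY9 and SLAMF8 overlapped between the labels. The label groups did not overlap for 7 of the 10 genes, a state also seen for 49.8% of tested genes. The sets differ: CD84 and CD244, which are too dim, and SLAMF8, an exon-level mean, are not among the tested genes. The higher ones were 4 of the 10 and the lower ones 3 of the 10, against 24.2% and 25.6% of tested genes. A difference of 8-fold or more was found for 5 of the 10, against 2.72% of tested genes. The median absolute log2 difference was 2.57 over the 10 genes and 0.303 over tested genes. Because the 10 genes were chosen with this contrast known, their differences are given as a description without a test. In RNA from whole cultures, fewer cells that express a gene and less RNA per cell cannot be told apart.

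**Figure D1:**
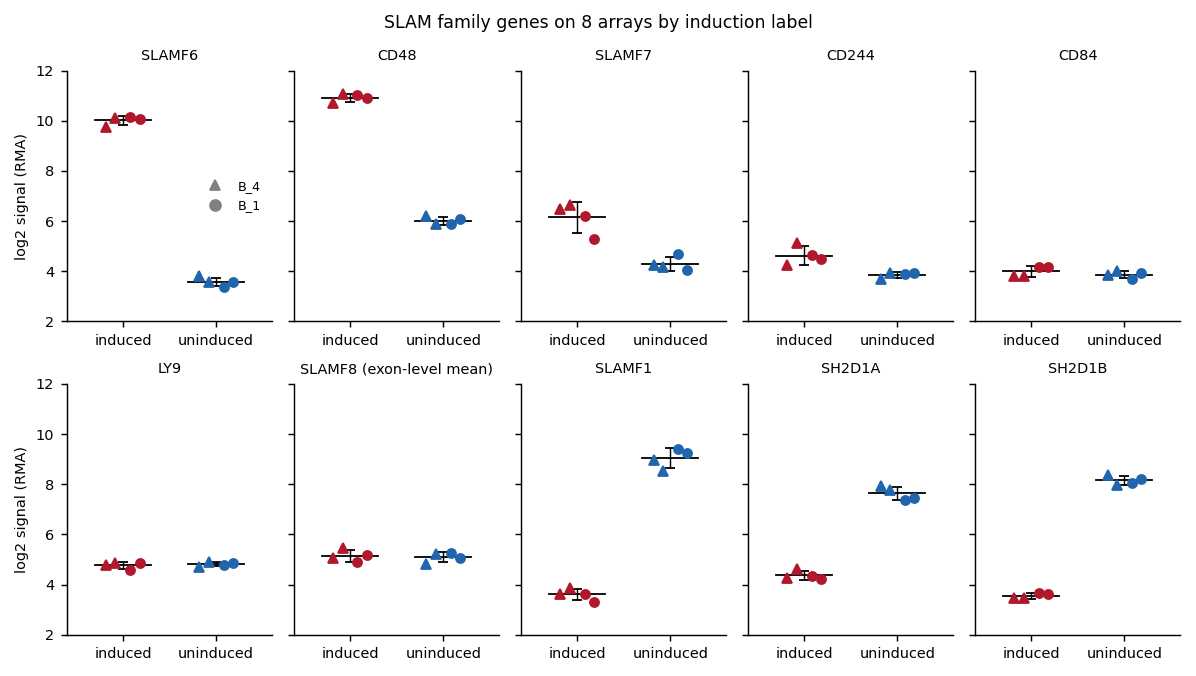
Log2 RMA signal of each SLAM family gene (vertical axis) on the 4 arrays labelled induced (left, red) and the 4 labelled uninduced (right, blue), with triangles for B_4, circles for B_1, and bars for the mean and SD. SLAMF6 and CD48 sit high on all 4 arrays labelled induced, SLAMF1, SH2D1A and SH2D1B sit high on all 4 labelled uninduced, and CD84, LY9 and SLAMF8 overlap.

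The promoters of the genes with the widest gaps are shown because SLAMF6, SLAMF1 and CD48 lie close together on chromosome 1 and differed in opposite directions, and because SH2D1B is the adaptor with the widest gap. SLAMF8 is shown beside them as a receptor whose label groups overlapped. Each line gives, 5′ to 3′ on the gene's own strand, the RefSeq window of GRCh38.p14 from 250 bases before to 50 after the gene's start, and capitals mark matches to the motifs named after the sequences, on either strand. The windows are chr1:160523206-160523505 for SLAMF6, chr1:160646995-160647294 for SLAMF1, chr1:160711773-160712072 for CD48 and chr1:162412087-162412386 for SH2D1B, all on the minus strand, and chr1:159826623-159826922 on the plus strand for SLAMF8.
SLAMF6: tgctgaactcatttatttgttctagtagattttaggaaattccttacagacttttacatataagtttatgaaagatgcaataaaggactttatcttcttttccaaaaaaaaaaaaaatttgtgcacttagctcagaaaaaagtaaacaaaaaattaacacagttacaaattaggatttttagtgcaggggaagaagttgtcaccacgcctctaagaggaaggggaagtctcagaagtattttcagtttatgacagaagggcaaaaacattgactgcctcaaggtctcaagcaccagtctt
SLAMF1: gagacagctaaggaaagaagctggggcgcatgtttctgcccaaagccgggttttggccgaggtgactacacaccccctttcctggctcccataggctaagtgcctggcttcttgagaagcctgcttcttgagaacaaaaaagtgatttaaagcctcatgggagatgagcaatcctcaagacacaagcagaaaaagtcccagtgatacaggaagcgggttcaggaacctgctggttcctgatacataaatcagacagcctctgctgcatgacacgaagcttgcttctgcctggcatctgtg
CD48: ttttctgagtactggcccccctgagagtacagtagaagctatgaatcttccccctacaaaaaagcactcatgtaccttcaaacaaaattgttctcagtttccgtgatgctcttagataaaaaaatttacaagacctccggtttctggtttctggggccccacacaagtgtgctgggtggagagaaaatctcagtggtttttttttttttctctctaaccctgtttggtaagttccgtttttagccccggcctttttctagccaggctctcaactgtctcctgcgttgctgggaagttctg
SH2D1B: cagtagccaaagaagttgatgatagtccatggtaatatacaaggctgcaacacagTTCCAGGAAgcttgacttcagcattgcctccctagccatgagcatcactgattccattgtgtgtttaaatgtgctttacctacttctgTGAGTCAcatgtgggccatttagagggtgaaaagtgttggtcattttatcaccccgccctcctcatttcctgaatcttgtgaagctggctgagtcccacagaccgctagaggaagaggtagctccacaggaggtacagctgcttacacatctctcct
SLAMF8: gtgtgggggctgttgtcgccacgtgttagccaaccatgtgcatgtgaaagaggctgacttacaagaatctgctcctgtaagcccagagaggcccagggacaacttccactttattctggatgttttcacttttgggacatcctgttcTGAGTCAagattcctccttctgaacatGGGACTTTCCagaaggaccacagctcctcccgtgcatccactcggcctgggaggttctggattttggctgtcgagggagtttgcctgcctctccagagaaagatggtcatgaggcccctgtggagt

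A promoter window was found for 7 of the 10 genes, those of CD84, LY9 and SLAMF7 being the others. The motifs searched were the octamer ATGCAAAT, the AP-1 motif TGANTCA, the STAT motif TTCNNNGAA, an interferon response motif (GAAA, 2 bases of any kind, GAAA), an EBF motif (TCCC, 2 bases of any kind, GGGA) and the kB consensus of NF-kB. The windows of SLAMF6, SLAMF1, CD48 and SH2D1A held no match to any of these letters. SH2D1B held 1 AP-1 match and 1 STAT match, and CD244 held 1 of each as well. SLAMF8 held 1 AP-1 match and 1 kB match. Of all 35116 promoter windows of this length, 7.71% held the AP-1 motif, 7.66% the STAT motif, 5.91% the kB consensus, 3.57% the interferon response motif, 1.77% the octamer and 1.21% the EBF motif. A match is a run of letters and says nothing about binding.

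SLAMF6 (NTB-A), a self-binding receptor of lymphocytes and natural killer cells, read 10.17, 10.06, 9.77 and 10.10 on arrays labelled induced and 3.37, 3.57, 3.80 and 3.56 on arrays labelled uninduced. All 4 arrays labelled induced were high and all 4 labelled uninduced were below 4. The means were 10.03 ± 0.18 and 3.57 ± 0.18 (SD, n = 4 each), a level 87.5-fold higher on arrays labelled induced, and 12 tested genes had a larger absolute difference. Signals this low include array background, so folds of genes that are dim in one label understate the difference.

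CD48, the lipid-anchored ligand of CD244, read 11.04, 10.89, 10.70 and 11.05 on arrays labelled induced and 5.88, 6.10, 6.21 and 5.90 on arrays labelled uninduced. The 2 groups lay more than 4 log2 units apart at their nearest values. The mean of 10.92 ± 0.16 on arrays labelled induced was 29.8-fold above the mean of 6.02 ± 0.16 on arrays labelled uninduced (SD, n = 4 each). CD48 and SLAMF6 were thus both high on the same 4 arrays. The mean of the 7 B-cell markers with a value ran from 7.93 to 8.28 on arrays labelled induced and from 5.73 to 5.99 on arrays labelled uninduced. The mean of the 6 Hodgkin cell markers ran from 7.52 to 7.76 on arrays labelled induced and from 7.02 to 7.18 on arrays labelled uninduced. These 6 did not move together: limma called 2 higher and 3 lower, and their median difference was -0.25. The part of the B-cell and Hodgkin cell markers in the SLAMF6 and CD48 differences was not tested.

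SLAMF7, a receptor carried by plasma cells and natural killer cells, read 6.22, 5.27, 6.47 and 6.65 on arrays labelled induced and 4.67, 4.07, 4.24 and 4.17 on arrays labelled uninduced. Replicate 2 was the lowest of the induced values and replicate 1 the highest of the uninduced ones, and the groups still did not overlap. The means of 6.15 ± 0.61 and 4.29 ± 0.27 (SD, n = 4 each) gave a 3.64-fold higher level on arrays labelled induced, and 6.57% of tested genes had a larger absolute difference. Of the 7 tested plasma cell markers, limma called 6 higher and 1, SDC1, lower on arrays labelled induced. Over all tested genes it called 27.1% higher and 28.4% lower. The other listed marker, JCHAIN, was too dim to be tested. It was lower on arrays labelled induced without overlap, with means of 3.82 there and 4.68 on arrays labelled uninduced. The mean signal of the 8 plasma cell markers ran from 8.90 to 9.29 on arrays labelled induced and from 7.25 to 7.48 on arrays labelled uninduced. Their part in the SLAMF7 difference was not tested.

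CD244 (2B4), the CD48 receptor of natural killer cells, read 4.63, 4.49, 4.24 and 5.13 on arrays labelled induced and 3.89, 3.94, 3.70 and 3.94 on arrays labelled uninduced. Its groups did not overlap, but most of these values lie under the lowest mean of a tested gene, and 23.6% of tested genes had a larger absolute difference. The means were 4.62 ± 0.38 on arrays labelled induced and 3.87 ± 0.12 on arrays labelled uninduced (SD, n = 4 each), a 1.69-fold difference. With levels this low the fold of CD244 was not set against that of its ligand CD48.

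SLAMF1 (CD150), the self-binding receptor that also serves measles virus for entry, ran the other way. It read 3.64, 3.31, 3.63 and 3.85 on arrays labelled induced and 9.41, 9.26, 8.98 and 8.51 on arrays labelled uninduced. All 4 arrays labelled induced were below 4, and all 4 labelled uninduced were above 8. The means of 3.61 ± 0.22 and 9.04 ± 0.40 (SD, n = 4 each) put SLAMF1 43.1-fold lower on arrays labelled induced, with 35 tested genes showing a larger absolute difference.

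Of the adaptors, SH2D1B (EAT-2), known from natural killer and myeloid cells, read 3.67, 3.61, 3.47 and 3.45 on arrays labelled induced and 8.06, 8.20, 8.39 and 7.98 on arrays labelled uninduced. No array labelled induced came within 4 log2 units of an array labelled uninduced. The means were 3.55 ± 0.11 and 8.16 ± 0.18 (SD, n = 4 each), a level 24.3-fold lower on arrays labelled induced. SH2D1A (SAP), best known from T cells and natural killer cells, read 4.35, 4.23, 4.25 and 4.63 on arrays labelled induced and 7.37, 7.45, 7.94 and 7.79 on arrays labelled uninduced. Its means of 4.36 ± 0.19 and 7.63 ± 0.27 (SD, n = 4 each) differed 9.65-fold in the same direction. Both adaptors were therefore high on the arrays where SLAMF1 was high and where SLAMF6 and CD48 were low.

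Markers of T cells, natural killer cells and myeloid cells were measured on the same arrays, where limma called 27.1% of all tested genes higher and 28.4% lower. The T-cell markers CD3D, CD3E, TRAT1 and CD28 stayed below 4.78 on all 8 arrays, and of the 3 T-cell markers tested limma called 0 (adjusted p from 0.132 to 0.622, 0 also at an unadjusted p under 0.05). Of the dim ones, TRAT1 was higher on arrays labelled induced without overlap (mean 3.98, against 3.57 on arrays labelled uninduced). CD3D, CD3E and CD28 overlapped. The mean of the 8 T-cell markers ran from 4.44 to 4.60 on arrays labelled induced and from 4.41 to 4.49 on arrays labelled uninduced. Among natural killer cell markers, KLRD1, KLRF1, NCAM1 and FCGR3A stayed below 4.78 on all 8 arrays. KLRF1 was higher on arrays labelled induced without overlap (mean 3.305, against 3.126 on arrays labelled uninduced), and KLRD1, NCAM1 and FCGR3A overlapped. Limma called 1 of the 4 tested, NKG7, which was higher on arrays labelled induced (adjusted p = 0.00307). The mean of the 8 natural killer cell markers ran from 4.57 to 4.83 on arrays labelled induced and from 4.53 to 4.66 on arrays labelled uninduced. Myeloid markers had 1 of 5 tested genes higher (CD68) and 1 lower (ITGAM), with a mean over 8 markers from 4.72 to 4.92 on arrays labelled induced and from 4.63 to 4.80 on arrays labelled uninduced. The part of these markers in the adaptor differences was not tested.

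CD84 (SLAMF5), a self-binding receptor, read 4.18, 4.18, 3.80 and 3.81 on arrays labelled induced and 3.70, 3.92, 3.84 and 4.0 on arrays labelled uninduced. LY9 (SLAMF3), another self-binding receptor, read 4.56, 4.85, 4.77 and 4.86 on arrays labelled induced and 4.77, 4.87, 4.72 and 4.89 on arrays labelled uninduced. By the mean of 7 exon-level probe sets, SLAMF8, a receptor of myeloid cells, read 4.91, 5.18, 5.06 and 5.46 on arrays labelled induced and 5.27, 5.08, 4.81 and 5.22 on arrays labelled uninduced. The groups overlapped for all 3 genes, with differences of 0.13 ± 0.13, -0.05 ± 0.08 and 0.06 ± 0.16 (SE, n = 4 each) for CD84, LY9 and SLAMF8. The LY9 difference turned positive with quantile normalisation (0.01) and with median centring (0.09). CD84 and CD244 lie under the filter on low values, and LY9 passed it only just, with a mean of 4.79 against the limit of 4.78.

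The exon-level table gave 110 probe sets with a single symbol for the 10 genes. For SLAMF6 all 10 probe sets were higher on arrays labelled induced without overlap, by 5.22 to 7.94 log2. All 9 CD48 probe sets were higher as well, by 1.97 to 5.99, with 6 of them at 8-fold or more. All 8 SH2D1B probe sets were lower on arrays labelled induced, by values from -5.62 to -2.01. For these 3 genes, every part of the transcript that was probed differed in the direction of the gene-level value. Over all 168240 exon-level probe sets that passed the filter, 36.6% had label groups that did not overlap. Of the 110 probe sets of the 10 genes, 75 passed it, and 62 of the 110 had label groups that did not overlap. Counts given for single genes include probe sets that did not pass, so they and the 36.6% cover unlike sets.

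**Figure D2:**
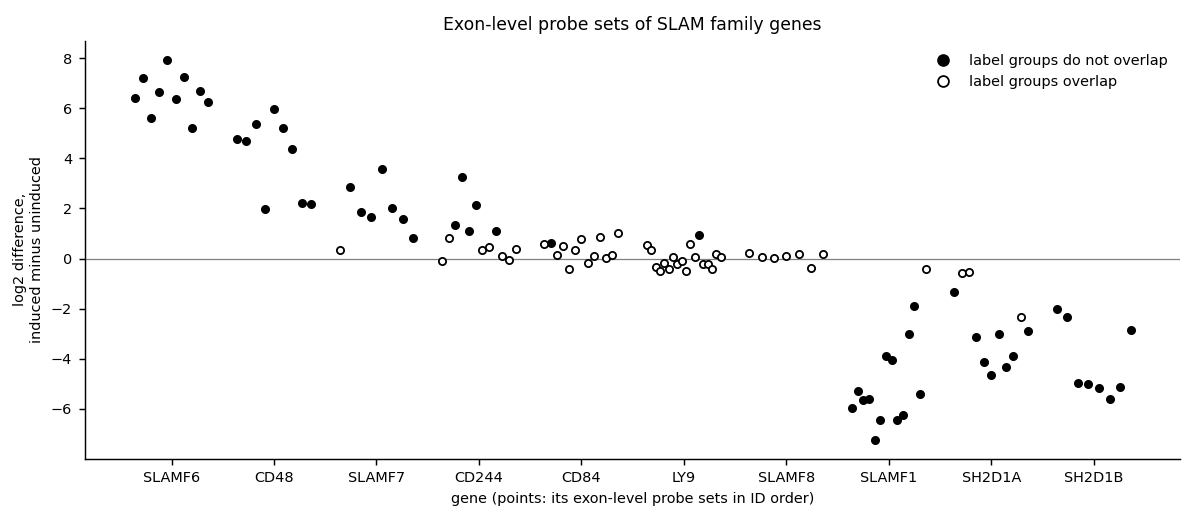
Log2 difference, arrays labelled induced minus arrays labelled uninduced (vertical axis), for each exon-level probe set of the 10 genes, in the order of their IDs within each gene, with filled points where the 4 and 4 arrays do not overlap. SLAMF6 and CD48 lie above 0 and SLAMF1, SH2D1A and SH2D1B below 0 throughout, while most points of CD84, LY9 and SLAMF8 are open and near 0.

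Within SLAMF1, 13 of 14 exon-level probe sets were lower on arrays labelled induced without overlap, and 12 of them by 8-fold or more. The exception, the last by ID, read 3.71, 4.99, 6.03 and 5.85 on arrays labelled induced and 5.51, 5.52, 6.03 and 5.25 on arrays labelled uninduced, a difference of -0.43. The other probe sets of SLAMF1 ran from -7.22 to -1.91. In SLAMF7, 7 of 8 probe sets were higher without overlap, by 0.82 to 3.56, and the first by ID overlapped with a difference of 0.35. The dimmest of those 7 lie under the filter. CD244 was uneven: 5 of 12 probe sets were higher without overlap, and the difference reached 3.25 in a probe set that read 6.94, 6.33, 5.55 and 7.50 on arrays labelled induced and 3.67, 3.21, 3.16 and 3.29 on arrays labelled uninduced. Of these 5 only that probe set passed the filter. The CD244 gene-level value of 0.75 therefore sits well under the widest of its exon-level gaps.

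SH2D1A had 8 of 11 probe sets lower on arrays labelled induced without overlap, with differences over all 11 from -4.64 to -0.54. The tenth by ID was high on both arrays labelled induced with last number 4. It read 5.55, 8.17, 5.38 and 8.91 on arrays labelled induced and 8.29, 9.31, 9.70 and 10.08 on arrays labelled uninduced. The interaction of the induction label with the last number was 2.38 for this probe set, with a limma unadjusted p of 0.00431 and an adjusted p of 1 over all exon-level probe sets, so it did not pass. In LY9, 1 of 18 probe sets was higher without overlap (6.39, 6.72, 6.77 and 6.89 on arrays labelled induced against 6.20, 5.80, 6.10 and 4.95 on arrays labelled uninduced). In CD84 it was 1 of 13 and in SLAMF8 it was 0 of 7.

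Averaged over the 2 labels, the B code made small differences. Within 1 label, B_4 minus B_1 was 0.81 for SLAMF7 on arrays labelled induced and -0.59 for SLAMF1 on arrays labelled uninduced. Limma called 0 of the 7 SLAM family genes that passed the filter between B_4 and B_1, and 0% of all tested genes, with 1 of the 7 and 13.9% of all tested genes at an unadjusted p under 0.05. That gene was SH2D1A, whose B_4 arrays were higher than its B_1 arrays (0.30 ± 0.11, SE; unadjusted p = 0.021, adjusted p = 0.297). On arrays labelled induced its mean was 4.44 in B_4 and 4.29 in B_1, and on arrays labelled uninduced 7.86 in B_4 and 7.41 in B_1. For the last number limma also called 0 of the 7 and 0% of all tested genes, with 0 of the 7 and 7.04% of all tested genes at an unadjusted p under 0.05. Its interaction with the induction label was called for 0 of the 7 and 0% of all tested genes, with 0 of the 7 and 2.95% of all tested genes at an unadjusted p under 0.05.

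Ordered by label and B code, the SLAMF1 level was 9.33 on uninduced B_1, 8.74 on uninduced B_4, 3.74 on induced B_4 and 3.48 on induced B_1 arrays (means of 2). The step between the labels exceeded the steps between B codes many times over. The difference between labels was -5.004 within B_4 and -5.86 within B_1. Their interaction of 0.85 ± 0.22 (SE) had a limma unadjusted p of 0.00358 and an adjusted p of 0.17, and did not pass. SLAMF7 ran from 6.56 on induced B_4 through 5.75 on induced B_1 and 4.37 on uninduced B_1 to 4.21 on uninduced B_4 arrays. Its label difference was 2.35 within B_4 and 1.38 within B_1, with an interaction of 0.98 ± 0.32 (unadjusted p = 0.0124, adjusted p = 0.259) that did not pass either.

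Across the 7 genes that passed the filter, limma called 0 interactions with the B code, against 0.297% of all tested genes, and 2 of the 7 (SLAMF1 and SLAMF7) against 11.9% of all tested genes had an unadjusted p under 0.05. SLAMF6 differed between labels by 6.26 within B_4 and 6.65 within B_1, CD48 by 4.82 and 4.98, SH2D1B by -4.72 and -4.48, and SH2D1A by -3.42 and -3.12, in the same order. CD84 had a difference of -0.12 within B_4 and 0.37 within B_1, LY9 of 0.01 and -0.11, and SLAMF8 of 0.25 and -0.12, so these 3 genes changed sign between B codes. The change of sign in CD84, which lies under the filter, had an interaction of -0.49 ± 0.16 with an adjusted p of 0.301 in the limma fit without a filter. CD244 gave 0.87 within B_4 and 0.64 within B_1. No test compared the B codes within 1 label, so neighbouring values of 1 label in these orders are a description.

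**Figure D3:**
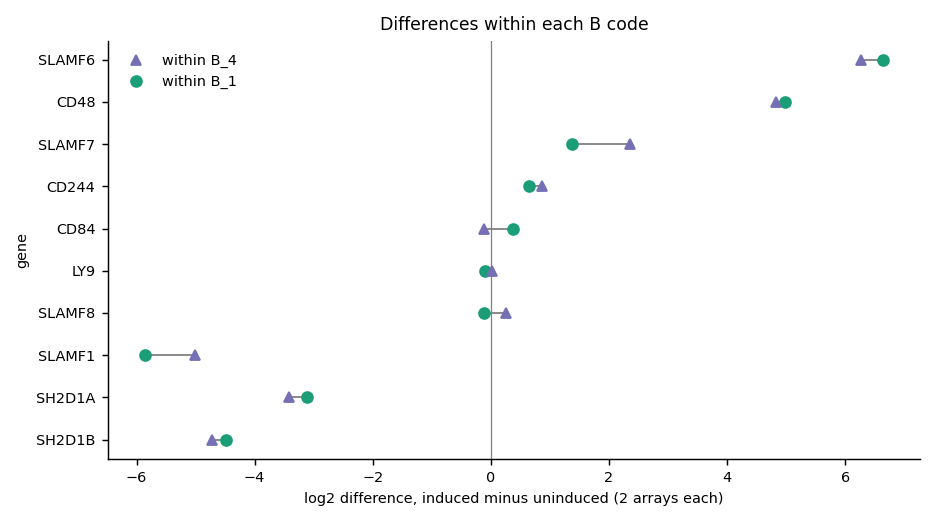
Log2 difference, arrays labelled induced minus arrays labelled uninduced, within B_4 (triangles) and within B_1 (circles), 2 arrays of each label per point, for the 10 genes from top to bottom. The 7 genes whose groups do not overlap keep their side of 0 in both codes, from 6.65 for SLAMF6 to -5.86 for SLAMF1, while CD84, LY9 and SLAMF8 cross it.

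On chromosome 1 the receptors follow each other in the order SLAMF6, CD84, SLAMF1, CD48, SLAMF7, LY9 and CD244 in the RefSeq annotation, with 6 other annotated genes, none with a gene-level value here, between them. The differences along this row were 6.45, 0.13, -5.43, 4.90, 1.86, -0.05 and 0.75. SLAMF1, with the most negative difference of the row, thus has CD48 as its nearest measured gene on one side and CD84, then SLAMF6, on the other. SLAMF8 and SH2D1B lie outside the row on the same chromosome, and SH2D1A is on chromosome X.

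**Figure D4:**
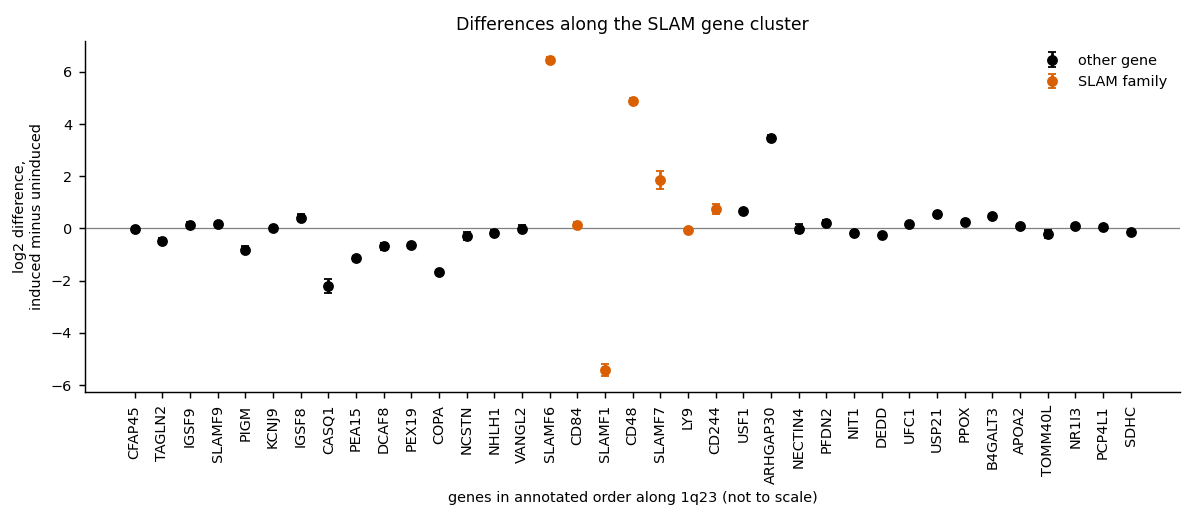
Log2 difference, arrays labelled induced minus arrays labelled uninduced (vertical axis, error bars SE, n = 4 each), for genes in annotated order (horizontal axis, not to scale), with the receptors in orange and the 15 nearest tested genes on each side in black. SLAMF6 at 6.45 and SLAMF1 at -5.43 are the ends of the scale, and ARHGAP30 at 3.48 is the highest of the flanking genes shown.

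Genes that flank the receptors were tested with limma over all genes. Before SLAMF6, limma called 1 of the 15 nearest tested genes higher and 8 lower. After CD244 it called 4 of 15 higher and 1 lower. Among all tested genes 27.1% were higher and 28.4% lower. The median difference was -0.29 before the row, 0.11 after it and 0.02 over all tested genes. With median centring, which moved the median of all tested genes by 0.13, the counts were 3 higher and 7 lower before the row and 8 higher and 0 lower after it, and over all tested genes 5431 higher and 3094 lower. With quantile normalisation they were 3 higher and 8 lower before it and 6 higher and 1 lower after it, and over all tested genes 4719 higher and 3737 lower.

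The genes nearest to SLAMF6 were VANGL2 (-0.01 ± 0.12, adjusted p = 0.931), a planar polarity protein, NHLH1 (-0.19 ± 0.08, adjusted p = 0.0841), a transcription factor of neurons, then NCSTN (-0.29 ± 0.11, adjusted p = 0.0384), a subunit of gamma-secretase. NHLH1 passed with exon-level means (-0.32, adjusted p = 0.0163) and without induced replicate 4 (-0.24, adjusted p = 0.0393). The NCSTN call was lost without any one of replicates 1, 2 and 3 of either label (adjusted p from 0.0793 to 0.141), with median centring (0.217), without covariates (0.0745) and with the replicate block (0.054). COPA, a coatomer subunit, read 10.97, 10.93, 10.86 and 10.96 on arrays labelled induced and 12.66, 12.70, 12.56 and 12.44 on arrays labelled uninduced (-1.66 ± 0.08 in limma, adjusted p = 3.3e-08). CASQ1, a calcium-binding protein of muscle, fell by 2.21 ± 0.19 on the log2 scale on arrays labelled induced (adjusted p = 2.19e-06). The 1 gene called higher before SLAMF6 was IGSF8, an immunoglobulin-superfamily protein (0.42 ± 0.08, adjusted p = 0.000963), named after its values were seen.

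After CD244 the nearest tested genes were the transcription factor USF1, ARHGAP30 and NECTIN4, an adhesion protein. ARHGAP30 read 9.27, 9.08, 9.14 and 9.14 on arrays labelled induced and 5.58, 5.52, 5.99 and 5.62 on arrays labelled uninduced. Its level was 11.1-fold higher on arrays labelled induced (3.48 ± 0.10 in limma, adjusted p = 3.87e-10). USF1 was higher by 0.68 ± 0.09 (adjusted p = 5.48e-05), and NECTIN4 did not pass (-0.01 ± 0.11, adjusted p = 0.966).

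Near SLAMF8, which itself overlapped between labels, limma called 2 of the 10 nearest tested genes higher and 2 lower, and the other 6 did not pass. FCER1A, the alpha chain of the IgE receptor, read 3.89, 3.64, 3.67 and 3.69 on arrays labelled induced and 10.03, 9.80, 9.61 and 9.44 on arrays labelled uninduced. That is a level 63.9-fold lower on arrays labelled induced (limma adjusted p = 1.43e-11). The DNA sensor AIM2, 2 tested genes further from SLAMF8, was 3.49-fold higher (1.81 ± 0.12, adjusted p = 2.38e-07). Around SH2D1B, whose own level was 24.3-fold lower on arrays labelled induced, limma called 3 of the 10 nearest tested genes higher and 2 lower. The counts near SLAMF8 and SH2D1B stand against 27.1% higher and 28.4% lower among all tested genes.

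On chromosome X, limma called 1 of the 5 nearest tested genes before SH2D1A higher and 2 lower. After SH2D1A it called 1 of 5 higher and 1 lower, against 27.1% higher and 28.4% lower among all tested genes. STAG2, a cohesin subunit and the nearest tested gene before SH2D1A, read 9.52, 9.31, 9.23 and 8.99 on arrays labelled induced and 4.18, 3.86, 3.61 and 3.86 on arrays labelled uninduced, a level 41.7-fold higher on arrays labelled induced (limma adjusted p = 2.77e-11). XIAP, whose loss also causes an X-linked lymphoproliferative disease and which was named after its values were seen, lies next to STAG2 in this list and did not pass (-0.10 ± 0.15, adjusted p = 0.616). SASH3, a lymphocyte adaptor, was 7.95-fold higher (2.99 ± 0.12, adjusted p = 4.89e-09), and the palmitoyltransferase ZDHHC9 was 3.52-fold lower (-1.81 ± 0.10, adjusted p = 9.57e-08). Over all 56 flanking genes limma called 12 higher and 15 lower (48.2%, against 55.5% of all tested genes). Quantile normalisation gave 22 higher and 16 lower, so that 57.9% of the called flanking genes and 55.8% of all called genes were higher. Median centring gave 25 higher and 13 lower, with 65.8% and 63.7% in that order, against 44.4% and 48.9% without rescaling.

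Partners and relatives of the SLAM receptors were more often higher than lower on arrays labelled induced. Of 28 listed genes, 27 had a gene-level value and 26 passed the filter, and limma called 14 higher and 6 lower while 6 did not pass. PLCG2 counts as lower by its brighter gene-level probe set, although its dimmer one and all its exon-level probe sets were higher. The median difference was 0.42, against 0.02 over all tested genes, and 76.9% of the list was called, against 55.5%. Of the called genes of the list 70% were higher, against 48.9% of all called genes. Quantile normalisation gave 16 higher and 6 lower (72.7%, against 55.8%), and median centring 17 higher and 4 lower (81%, against 63.7%). The list was put together for this report with earlier results on these arrays known.

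**Figure D5:**
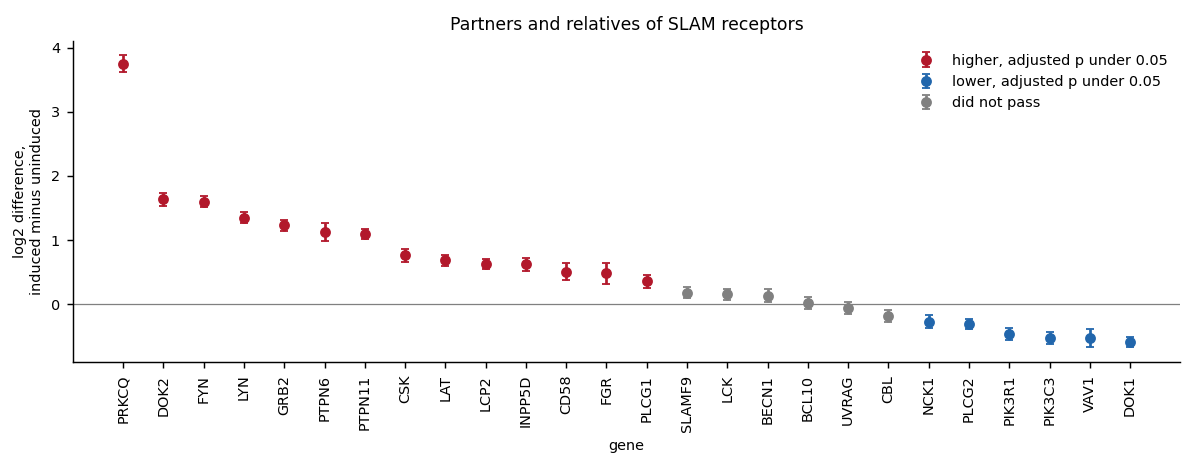
Log2 difference, arrays labelled induced minus arrays labelled uninduced, from limma with its SE (vertical axis) for the 26 tested partners and relatives of SLAM receptors, ordered by size, with red for genes called higher, blue for genes called lower and grey for genes that did not pass. PRKCQ at 3.75 stands far above the rest, whose next value is 1.63 for DOK2. PLCG2 is drawn from the brighter of its 2 probe sets, which disagree.

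PRKCQ, protein kinase C theta, acts downstream of SAP and FYN in T cells. It read 8.63, 8.11, 8.26 and 8.61 on arrays labelled induced and 4.48, 4.59, 4.73 and 4.82 on arrays labelled uninduced, a level 13.4-fold higher on arrays labelled induced (3.75 ± 0.13 in limma, adjusted p = 1.7e-09). FYN, the kinase that SAP recruits, read 7.41, 7.24, 7.44 and 7.22 on arrays labelled induced and 5.90, 5.82, 5.72 and 5.49 on arrays labelled uninduced. It was 3.02-fold higher on arrays labelled induced (adjusted p = 6.89e-08), where SH2D1A itself was low. The kinase LYN (1.35 ± 0.09, adjusted p = 2.6e-07), the docking protein DOK2 (1.63 ± 0.10, adjusted p = 1.9e-07), the adaptor GRB2 (1.23 ± 0.09, adjusted p = 5.57e-07) and the phosphatase PTPN6 (1.12 ± 0.14, adjusted p = 4.39e-05) were higher too.

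The 6 genes counted as lower had small differences, PLCG2 by its brighter probe set only. DOK1, a docking protein (-0.59 ± 0.08, adjusted p = 0.000112), the exchange factor VAV1 (-0.53 ± 0.14, adjusted p = 0.00683), the lipid kinase PIK3C3 (-0.52 ± 0.09, adjusted p = 0.000696) and the regulatory subunit PIK3R1 (-0.47 ± 0.09, adjusted p = 0.00133) kept the call with both other scalings. The adaptor NCK1 (-0.28 ± 0.10, adjusted p = 0.0384) lost it with median centring (0.259), with exon-level means (0.422), with the replicate block (0.0517) and without induced replicate 1 or 2 or uninduced replicate 1, 2 or 4 (0.0615 to 0.144). SLAMF9, the remaining receptor of the family, did not pass (0.18 ± 0.09, adjusted p = 0.116), and CD2, a related receptor of T cells, lies under the filter with a mean of 4.66 on arrays labelled induced and 4.30 on arrays labelled uninduced.

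PLCG2, a phospholipase of B-cell and natural killer cell receptors, has 2 gene-level probe sets that disagree. The brighter, which stands for the gene in the counts above, read 12.37, 12.37, 12.26 and 12.30 on arrays labelled induced and 12.60, 12.68, 12.61 and 12.66 on arrays labelled uninduced (-0.31 ± 0.08 in limma, adjusted p = 0.0049). The dimmer read 10.77, 10.79, 10.35 and 10.92 on arrays labelled induced and 6.37, 6.28, 6.23 and 5.73 on arrays labelled uninduced, a difference of 4.55. All 35 exon-level probe sets of PLCG2 were higher on arrays labelled induced, by 2.58 to 7.45. The call of the brighter probe set was lost with median centring (-0.18, adjusted p = 0.0824). Only the brighter gene-level probe set of PLCG2 thus read lower, and its count among the lower genes rests on that one alone.

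The genes whose profile over the 8 arrays lay closest to SLAMF1, by the root mean square difference of values centred on each gene's own mean, were REPS2 (0.18), an endocytosis protein, RGS2 (0.18), a regulator of G protein signalling, and STRADB (0.19), a pseudokinase. Closest to SLAMF6 were ST6GAL1 (0.17), a sialyltransferase, CD38 (0.19), an ectoenzyme, and GLUL (0.21), glutamine synthetase, whose dimmer probe set differed by 3.38 in place of 6.20. For SH2D1A they were AGMO (0.16), an ether lipid enzyme, HOXD11 (0.17), a homeobox factor, and PTPRR (0.18), a phosphatase. All of these distances are in log2 units over 8 arrays of 2 labels, and the label difference makes up most of each profile. RGS2, for example, read 4.94, 4.42, 4.45 and 4.85 on arrays labelled induced and 10.32, 10.10, 10.03 and 9.84 on arrays labelled uninduced. Its direction follows from its choice by closeness to SLAMF1 on these arrays.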

How the data were processed

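The deposited values are log2 signals that the authors made with RMA and Partek, per the submitters' processing notes, which give no versions; base 2 is inferred because RMA normally gives it and because the values fit it (2.07 to 14.14 at gene level). RMA equalises the arrays, so an overall shift in RNA is lost and differences of dim genes shrink. For the build behind the probe sets and any filter, the sources used here give nothing. The 16 samples are 8 arrays summarised at 2 levels: all 4428 features found in both tables were identical at tolerance 0, and exon-level values were never counted as further replicates.

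Of 33297 gene-level probe sets 19460 had 1 symbol, and of 257430 exon-level ones 224320. Symbols were updated through the RefSeq annotation of GRCh38.p14, used otherwise only for gene order and promoters. Each gene kept its brightest probe set. The filter on low values dropped genes whose mean over the 8 arrays fell below the 25th percentile of gene means, so 13796 were tested. Limma 3.58.1 in R 4.3.3 (package data.table, version 1.17.8) fitted induction label, B code and last number, with p-values adjusted by Benjamini-Hochberg across the 13796 genes and 0.05 as the threshold. Interactions had fits of their own. Every adjusted p comes from limma. The code was tested on simulated data. Figures used matplotlib 3.10.9 in Python 3.11.15. The number of arrays limits the precision, and scan dates were not used here, so no batch was tested.

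The genes and lists were chosen with earlier results of these data known. The naming rule took all 10 genes, RELB, the 6 largest called differences in each direction of the partner list, the 3 nearest tested genes on each side of the row of receptors, the 4 largest called flanking differences in each direction, and the 3 closest profiles to SLAMF1, SLAMF6 and SH2D1A. Alternatives covered the filter, normalisation, probe set summary, variance model, covariates, replicate block and each array left out.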

Additional observations from a re-analysis of the deposited data

How the results depend on the processing

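Of the 10 SLAM family genes, 7 had label groups without overlap under quantile normalisation, median centring, means of probe sets and means of exon-level probe sets. The count was also 7 with each array left out. Leaving out an array cannot make separate groups overlap, so for those 7 genes that outcome was fixed in advance. Leaving out single arrays gave SLAMF6 differences from 6.38 to 6.54, SLAMF1 from -5.61 to -5.31, SLAMF7 from 1.70 to 2.16 and LY9 from -0.08 to 0.02. Exon-level means gave smaller gaps for SLAMF1 (-4.82), CD48 (4.09), SH2D1A (-2.80) and SH2D1B (-4.13) and wider ones for CD84 (0.35), CD244 (0.91) and SLAMF6 (6.55). PLCG2 turned to 2.12 with the mean of its probe sets and to 4.88 with exon-level means. The genes called for the B code numbered 0 and, without single arrays, 0 to 65, the 65 without induced replicate 4. For the last number exon-level means gave 1. The 41 interactions with the B code became 24 with quantile normalisation, 26 with exon-level means, 174 with a variance trend and robust fitting, 0 with exon-level probe sets fitted singly (chosen after seeing the data), and 3 to 33 without single arrays, where the lowest counts came without uninduced replicate 1 (4), 2 (3) or 4 (6). Interactions with the last number ran from 0 to 3 without single arrays. The cause was not tested. Same-numbered arrays of the 2 labels share their codes, and the labels do not say whether they share a culture. Their deviations from the label means correlated at 0.16, -0.02, 0.11 and 0.02. The highest correlations with an array of another number were 0.13, 0.14, 0.19 and 0.06. These values cannot decide whether the arrays were paired. With the replicate block 7336 genes were called in place of 7656, 19 of the partner list in place of 20, 25 flanking genes in place of 27, and RELB stayed at -0.15 (adjusted p = 0.222). Signals near the bottom of the range limit the genes that are dim in a label.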
